A study of Mus musculus with 6 samples.

Results

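The genes described are 10 members of the WNT signalling pathway, taken by symbol from the count table of mouse tailbud mesoderm progenitors: the ligand genes Wnt3a, Wnt5a and Wnt5b, the signal booster Rspo3, the secreted inhibitors Dkk1 and Notum, and the intracellular target genes Sp5, Axin2, Lef1 and Nkd1. They are 10 of the 19342 gene names listed. Values of the 4 growth factor libraries do not line up with the gene names as deposited, so each column was aligned in order to the untreated columns, a step that favours values lying between the 0 h and 96 h levels. All 10 were matched securely to a value in every library, and all 10 reached 1 CPM or more in some library (CPM being counts scaled to a common library total, corrected for composition).

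WNT proteins bind Frizzled receptors, and in the canonical branch this stabilises beta-catenin, which enters the nucleus and switches on genes with TCF/LEF factors. In the mouse tailbud, canonical WNT signalling keeps axial progenitors and drives paraxial mesoderm formation, while WNT5 ligands act mainly through a branch that steers cell movement and tissue elongation. Several target genes encode inhibitors of the pathway, so their transcripts are often used as a readout of its activity.

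RNA was taken from C57BL/6 mesoderm progenitor cells isolated from embryos and grown with serum on mitomycin C-treated fibroblasts, a feeder layer that no longer divides. The 6 conditions, with 1 library each, were untreated cells at 0 h and at 96 h, cells given recombinant human BMP4 (5 h or 11 h), cells given BMP4 plus recombinant human FGF8 (5 h), and cells given BMP4 plus recombinant human FGF4 (11 h). Per the labels, factors were added after 96 h, which puts the 5 h libraries at 101 h and the 11 h libraries at 107 h in culture. There was no replicate of any condition and no untreated culture of 101 h or 107 h, so differences between single libraries carry no p-value and duration of culture cannot be told apart from the added factor.

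Total counts were between 179196459 (BMP4 11 h) and 272743104 (96 h untreated), at which 3 counts are worth between 0.0111 and 0.0179 CPM. The 5 h libraries, which their labels place after 96 h of culture, stood close to 0 h and apart from 96 h. Whether the labels or the cultures account for this could not be worked out, so every ratio of a 5 h library to 96 h carries that doubt. Across 13980 genes, log2 levels in BMP4 5 h correlated with 0 h at r = 0.997 and with 96 h at r = 0.966, and at least 2-fold differences from 0 h numbered 54 upward and 12 downward, against 316 and 458 from 96 h. Of 10 tailbud and presomitic markers analysed, 9 were at least 2-fold lower at 96 h than at 0 h, against 2.32% of all genes. The median log2 ratio of the 10 was -3.86. Their summed level was 428 CPM at 0 h, 117 at 96 h, 378 with BMP4 at 5 h, 377 with FGF8, 231 with BMP4 at 11 h and 120 with FGF4. Meox1, the marker that was not 2-fold lower, made up most of the 96 h and FGF4 sums. It was at 102.5, 99.6, 90.45, 92.0, 90.5 and 87.75 CPM in that order. The summed level of 10 fibroblast markers was lowest at 0 h and highest with FGF4. It was 195, 896, 293, 257, 557 and 1319 CPM in that order. At 96 h, 7 of them were at least 2-fold higher than at 0 h, against 3.84% of all genes, and none 2-fold lower. Thy1 (0.423 against 0.662 CPM) and Fbln2 (14.7 against 24.6 CPM) were below 0 h. Red blood cell markers (6 of 8 analysed) were at 15.2, 3088, 20.6, 108, 2930 and 1986 CPM. Hba-a1 gave 2121 of the 3088 CPM at 96 h. Of the 6, only Alas2 stayed securely matched at a stricter placement margin of 10 units. None did with placement on the 96 h column alone. No analysed marker of these lists had 0 counts in any library. Their part in the differences below was not tested, and in such mixed samples fewer cells of a type and less RNA per cell cannot be told apart.

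**Figure D1:**
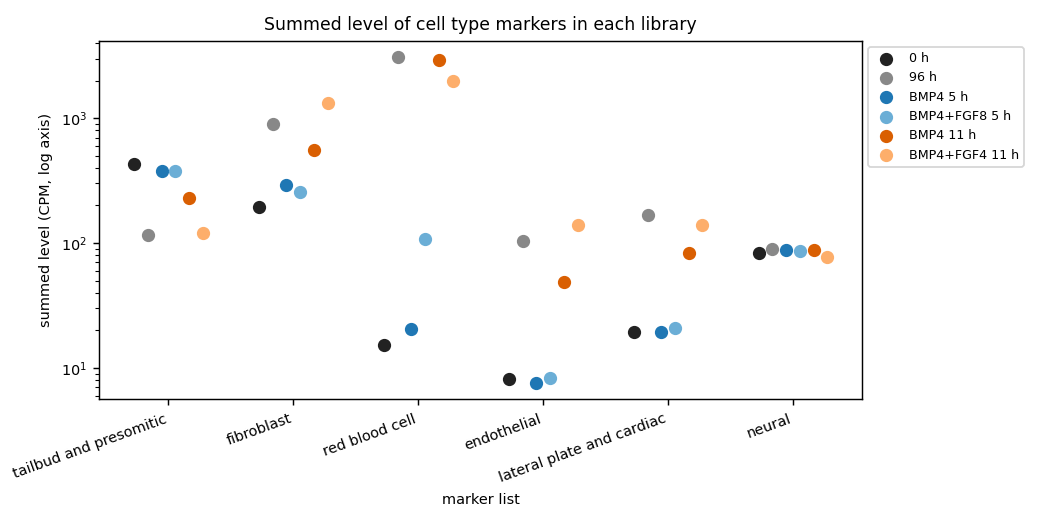
Summed level in CPM (log axis) of marker genes of 6 cell types, with 1 point for each of the 6 libraries. Tailbud and presomitic markers are highest at 0 h (428 CPM) and in the 5 h libraries, while red blood cell markers are between 1986 and 3088 CPM at 96 h and in the 11 h libraries. Of the 6 red blood cell markers, only Alas2 was kept at the stricter placement margin of 10 units.

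Promoter windows of 4 of the genes are shown, because the pathway acts on its targets through TCF/LEF factors that bind DNA and because these 4 span the range of behaviour, from a ligand and targets that differed strongly to a target that hardly differed. Each window runs from 250 bases before to 50 bases after the start site in RefSeq (GRCm38.p6, the mm10 assembly), written along the gene's own strand. Capitals mark a match to CTTTGAT or CTTTGAA, forms of the TCF/LEF motif, searched on both strands. The windows are chr2:70474673-70474972 on the plus strand for Sp5, chr19:30549447-30549746 on the minus strand for Dkk1, chr11:59290702-59291001 on the minus strand for Wnt3a, and chr11:108920099-108920398 on the plus strand for Axin2.
Sp5: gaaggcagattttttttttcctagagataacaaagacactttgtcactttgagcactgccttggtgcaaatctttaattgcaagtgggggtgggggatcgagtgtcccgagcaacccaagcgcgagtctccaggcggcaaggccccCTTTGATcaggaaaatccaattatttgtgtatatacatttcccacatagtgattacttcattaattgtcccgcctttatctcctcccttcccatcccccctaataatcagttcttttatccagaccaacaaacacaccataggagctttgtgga
Dkk1: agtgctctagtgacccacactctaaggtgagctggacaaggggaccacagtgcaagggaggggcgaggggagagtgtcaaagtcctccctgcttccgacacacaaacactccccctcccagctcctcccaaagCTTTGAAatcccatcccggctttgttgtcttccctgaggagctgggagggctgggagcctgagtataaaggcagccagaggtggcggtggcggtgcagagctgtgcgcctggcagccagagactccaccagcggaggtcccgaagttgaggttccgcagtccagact
Wnt3a: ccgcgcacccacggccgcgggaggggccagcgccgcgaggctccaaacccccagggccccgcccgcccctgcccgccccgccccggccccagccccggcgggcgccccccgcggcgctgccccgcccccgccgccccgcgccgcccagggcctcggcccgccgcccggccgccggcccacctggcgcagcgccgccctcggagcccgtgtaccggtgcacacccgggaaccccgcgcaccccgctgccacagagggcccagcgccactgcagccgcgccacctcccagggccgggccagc
Axin2: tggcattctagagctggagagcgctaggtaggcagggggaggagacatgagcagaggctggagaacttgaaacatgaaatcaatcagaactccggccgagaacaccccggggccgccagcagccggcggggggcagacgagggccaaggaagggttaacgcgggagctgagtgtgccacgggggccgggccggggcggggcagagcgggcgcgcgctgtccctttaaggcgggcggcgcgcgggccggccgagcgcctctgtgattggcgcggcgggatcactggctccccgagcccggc
Sp5 held 1 CTTTGAT that begins 104 bases before the start site, and Dkk1 held 1 CTTTGAA that begins 117 bases before it. Neither form occurred in the windows of Wnt3a or Axin2, which says only that these letters are not in these 300 bases. Among all 32544 distinct windows, 8.67% held at least 1 of the 2 forms, 3.73% CTTTGAT and 5.15% CTTTGAA. RefSeq windows were matched for 7 of the 10 genes, leaving out Wnt5a, Rspo3 and Notum. The windows of Lef1 and Nkd1 held neither form, and of 3 windows of Wnt5b the most downstream held 1 CTTTGAT.

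The 3 ligand genes were highest in the fresh cells and lowest after 96 h of culture. Wnt3a (chromosome 11, 59248033 to 59290752), the canonical ligand of the primitive streak and tailbud, was at 14.7 CPM at 0 h, 2.44 at 96 h, 14.5 with BMP4 at 5 h, 14.6 with BMP4 and FGF8 at 5 h, 6.11 with BMP4 at 11 h and 2.93 with BMP4 and FGF4 at 11 h. The 0 h and 5 h libraries stood together, within counting error of each other, the BMP4 11 h library was intermediate, and the FGF4 library was near the 96 h level. Wnt3a was thus 6.02-fold lower at 96 h than at 0 h (95% counting interval 5.53 to 6.55), and the BMP4 5 h level was 5.97 times that of 96 h (5.48 to 6.50). Intervals here and below cover counting error only, not variation between cultures.

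Wnt5a (chromosome 14, 28504750 to 28527448), a ligand needed for outgrowth of the tail and limbs, was at 119.6 CPM at 0 h, 27.3 at 96 h, 107 with BMP4 at 5 h, 107 with FGF8, 57.7 with BMP4 at 11 h and 28.8 with FGF4. It had the same order as Wnt3a, except that both 5 h libraries were below 0 h by more than counting error, at a log2 ratio of -0.16 for BMP4 alone. Its paralogue Wnt5b (chromosome 6, 119432531 to 119544347) was at 68.4, 36.7, 66.7, 65.95, 49.6 and 37.0 CPM in that order. The spread of Wnt5b was narrower, and no pair of its libraries differed 2-fold: the largest gap, between 0 h and 96 h, was 1.87-fold (1.82 to 1.92). Its FGF4 level could not be told from 96 h within counting error (ratio interval 0.98 to 1.04).

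Rspo3 (chromosome 10, 29452416 to 29535867) encodes an R-spondin, a secreted protein that raises the number of WNT receptors on the cell surface. Its level was 44.3 CPM at 0 h, 5.11 at 96 h, 41.2 with BMP4 at 5 h, 40.2 with FGF8, 23.0 with BMP4 at 11 h and 8.23 with FGF4. Rspo3 had the widest range of the 10 genes, 8.67-fold lower at 96 h than at 0 h (8.19 to 9.18), and 99.2% of the genes analysed had a smaller log2 range over the 6 libraries. It was also the member with the most left in the FGF4 library relative to 96 h, at a log2 ratio of 0.64, where the others ranged from -0.07 to 0.27.

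Dkk1 (chromosome 19, 30545863 to 30549665), a secreted inhibitor that blocks the WNT co-receptors, was at 16.6 CPM at 0 h, 2.21 at 96 h, 10.3 with BMP4 at 5 h, 9.98 with FGF8, 6.18 with BMP4 at 11 h and 2.24 with FGF4. In contrast to the ligands, its 5 h levels stopped well short of 0 h, and its FGF4 level could not be told from 96 h within counting error. Notum (chromosome 11, 120653788 to 120661175), a secreted enzyme that inactivates WNT by removing its lipid, was between 5.42 CPM (0 h) and 6.19 CPM (FGF4). Neighbours in the order of its 6 levels did not differ beyond counting error, but FGF4 over 96 h did, at a ratio with an interval of 1.06 to 1.23. The log2 range of Notum was 0.18, against a median of 0.34 over all genes analysed.

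Among the intracellular targets, Sp5 and Lef1 differed widely between libraries while Axin2 and Nkd1 did not. Sp5 (chromosome 2, 70474923 to 70477729), a zinc finger factor directly switched on by beta-catenin, was at 12.9 CPM at 0 h, 2.95 at 96 h, 9.08 with BMP4 at 5 h, 9.14 with FGF8, 5.59 with BMP4 at 11 h and 3.67 with FGF4. Like Dkk1, it had 5 h levels below 0 h. Lef1 (chromosome 3, 131110471 to 131224356), both a target and a nuclear partner of beta-catenin, was at 102 CPM at 0 h, 42.7 at 96 h, 100.3 with BMP4 at 5 h, 96.9 with FGF8, 81.8 with BMP4 at 11 h and 50.4 with FGF4. Its BMP4 11 h level was nearer to 0 h than to 96 h.

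Axin2 (chromosome 11, 108920349 to 108950783), a scaffold that helps destroy beta-catenin and the most used target gene of the pathway, was at 54.3 CPM at 0 h, 40.3 at 96 h, 53.1 with BMP4 at 5 h, 49.2 with FGF8, 47.2 with BMP4 at 11 h and 42.8 with FGF4. Its largest difference, between 0 h and 96 h, was 1.345-fold (1.31 to 1.38), and 62.3% of all genes had a smaller range. Nkd1 (chromosome 8, 88521354 to 88594884), an inhibitor that binds Dishevelled, was at 41.0, 32.2, 39.1, 39.2, 35.3 and 30.8 CPM in that order. Both kept the order of the other members, with fresh and 5 h cells highest, but within a small range, and Nkd1 was lowest with FGF4 rather than at 96 h.

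**Figure D2:**
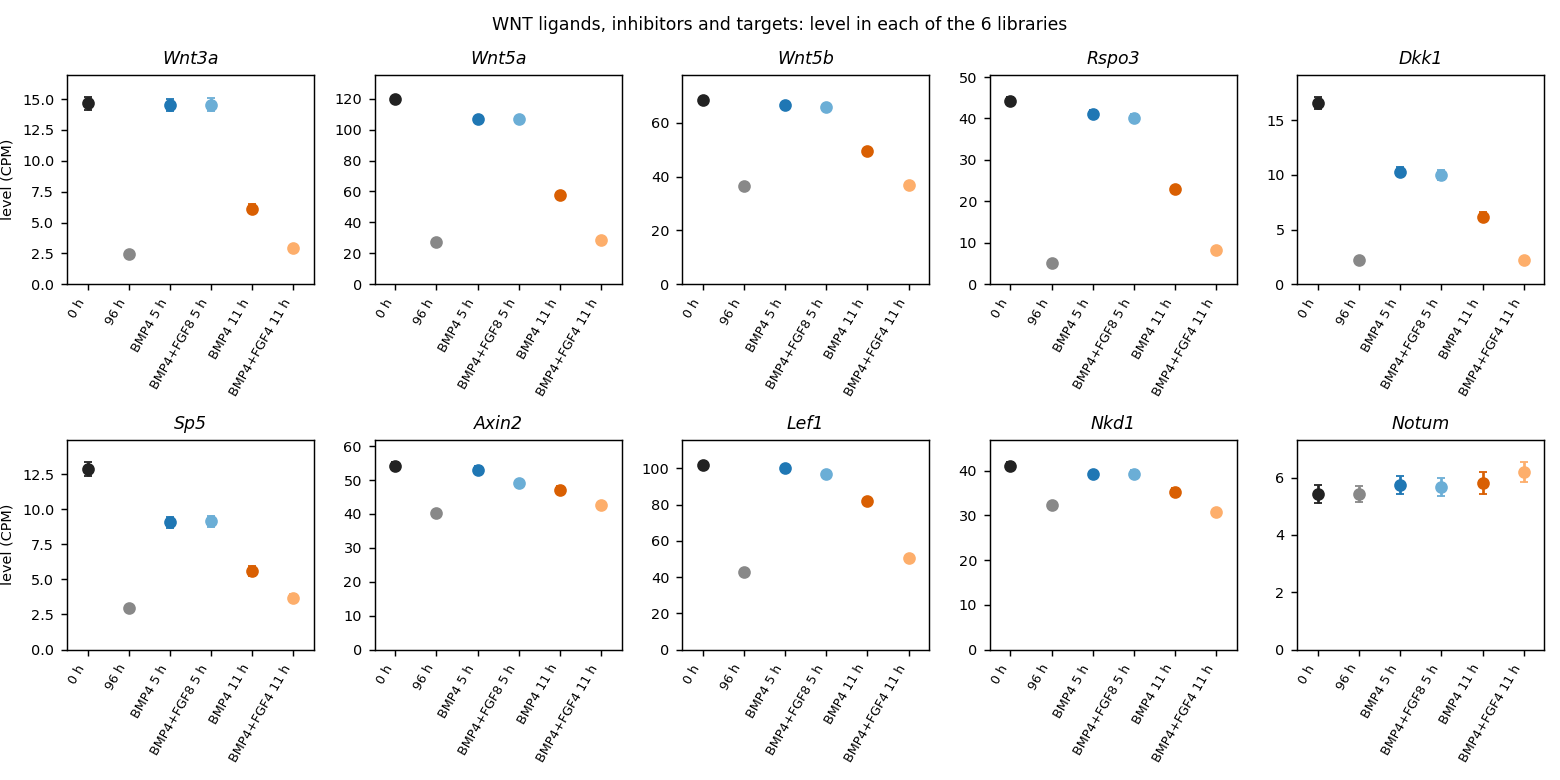
Level in CPM (linear axis from 0) of each gene in the 6 libraries, 1 point per library, with 95% counting intervals that are often smaller than the point. Of the 10 genes, 8 are highest at 0 h and lowest at 96 h, for some of them within counting error of the next library. Nkd1 is highest at 0 h and lowest with BMP4 and FGF4 (30.8 CPM), and Notum stays between 5.42 and 6.19 CPM.

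Per kilobase of exon, which allows levels of different genes to be compared, Wnt5b led at 0 h with 25.8 CPM per kb, followed by Wnt5a (15.3), Rspo3 (14.3), Lef1 (11.6), Axin2 (9.86), Nkd1 (8.99), Dkk1 (6.83), Sp5 (6.13), Wnt3a (5.31) and Notum (2.25). At 96 h Wnt5b still led at 13.8 CPM per kb, but Axin2 (7.33) and Nkd1 (7.07) came next, and Wnt3a (0.882) and Dkk1 (0.910) were last. Lengths are unions of annotated exons, so genes with long alternative exons are understated.

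After 96 h without added factor, 6 of the 10 genes (Wnt3a, Wnt5a, Rspo3, Dkk1, Sp5 and Lef1) were at least 2-fold lower than at 0 h, where 2.32% of all genes analysed were. None was at least 2-fold higher, where 3.84% of all genes were. The median log2 ratio was -1.60 over the 10, with -0.0003 over all 13980 genes. The log2 ratios were -3.00 for Rspo3, -2.66 for Dkk1, -2.37 for Wnt3a, -2.11 for Wnt5a, -1.96 for Sp5 and -1.25 for Lef1. Wnt5b at -0.89, Axin2 at -0.42, Nkd1 at -0.34 and Notum at 0.01 did not reach 2-fold.

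With BMP4 for 5 h, the same 6 genes were at least 2-fold higher than at 96 h, where 2.26% of all genes were higher and 3.28% lower. Both this comparison and the previous one use the 96 h library, so the match between them is not a separate result. Log2 ratios were 2.89 for Rspo3, 2.36 for Wnt3a, 1.997 for Dkk1, 1.95 for Wnt5a, 1.47 for Sp5 and 1.22 for Lef1. Set directly against 0 h, none of the 10 differed 2-fold, with 0.386% of genes past that mark upward and 0.0858% downward. Dkk1 and Sp5 lay farthest below, at log2 ratios of -0.66 (1.61-fold by level) and -0.48, with 0.143% and 0.279% of all genes lower still. The other 8 were between -0.16 (Wnt5a) and 0.08 (Notum).

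Adding FGF8 to BMP4 for 5 h was accompanied by little difference in any of the 10. No member differed 2-fold from BMP4 alone, with 0.165% of genes past that mark upward and 0.0143% downward. The log2 ratios ran from -0.11 (Axin2) to 0.01 (Sp5). Counting intervals of the ratio excluded 1 for Axin2 (0.904 to 0.953) and Lef1 (0.948 to 0.984) and held 1 for the other 8, among them Wnt3a (0.953 to 1.05) and Rspo3 (0.948 to 1.01). Relative to 96 h, 6 of the 10 were at least 2-fold higher with BMP4 and FGF8, against 2.40% of all genes, with 3.14% lower.

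With BMP4 for 11 h, Rspo3, Dkk1, Wnt3a and Wnt5a were at least 2-fold higher than at 96 h, against 2.44% of all genes. None was 2-fold lower, against 0.272%. Rspo3 was 4.51-fold higher (4.24 to 4.80), Dkk1 2.80-fold (2.53 to 3.10), Wnt3a 2.51-fold (2.27 to 2.77) and Wnt5a 2.11-fold (2.05 to 2.18). Just short of 2-fold were Lef1 at 1.92 (1.87 to 1.97) and Sp5 at 1.90 (1.72 to 2.09). The call for Wnt5a was lost when libraries were scaled by total counts, and those for Wnt3a and Dkk1 with 2 CPM added, at log2 ratios of 0.98, 0.87 and 0.96. From 96 h to BMP4 11 h the summed fibroblast markers went from 896 to 557 CPM and endothelial markers from 104 to 48.9. Lateral plate and cardiac markers went from 168 to 82.7 and tailbud markers from 117 to 231. Of 10 fibroblast markers, 2 were at least 2-fold lower and 1 higher (Thy1, at 3.12 against 0.423 CPM). Of 7 endothelial markers 4 were at least 2-fold lower, and of 9 lateral plate and cardiac markers 5, with none higher in either list. Both tailbud sums hold Meox1, at 99.6 and 90.5 CPM. Of the 10 tailbud markers, 9 were at least 2-fold higher and none lower, with a median log2 ratio of 2.59. Red blood cell markers were at 3088 and 2930 CPM. The part of these cell types in the result was not tested.

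With FGF4 added to BMP4 for 11 h, Rspo3 was 2.80-fold lower than with BMP4 alone (2.65 to 2.96) and Dkk1 2.76-fold lower (2.48 to 3.09). These 2 of 10 were at least 2-fold lower, against 0.658% of all genes, and none was 2-fold higher, against 1.22%. By level, Wnt5a (2.004-fold, 1.94 to 2.07) and Wnt3a (2.085-fold, 1.89 to 2.31) were lower by about as much as the threshold, but after adding 0.5 CPM their log2 ratios were -0.99 and -0.95 and so missed it. Lef1 was at -0.69, Sp5 at -0.55, Wnt5b at -0.42, Nkd1 at -0.19 and Axin2 at -0.14, the last at 0.0017 when libraries were scaled by total counts. Against 96 h, none of the 10 differed 2-fold in the FGF4 library, where 1.38% of all genes were higher and 0.122% lower. In the FGF4 library tailbud markers summed to 120 CPM against 231 with BMP4 alone, and fibroblast markers to 1319 against 557. Both tailbud sums hold Meox1, at 87.75 and 90.5 CPM. Of the 10 tailbud markers, 9 were at least 2-fold lower and none higher, with a median log2 ratio of -1.97. Of the 10 fibroblast markers, 7 were at least 2-fold higher and none lower. Endothelial markers summed to 139 against 48.9 CPM (6 of 7 at least 2-fold higher). Lateral plate and cardiac markers summed to 141 against 82.7 CPM (3 of 9 at least 2-fold higher), and red blood cell markers to 1986 against 2930.

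**Figure D3:**
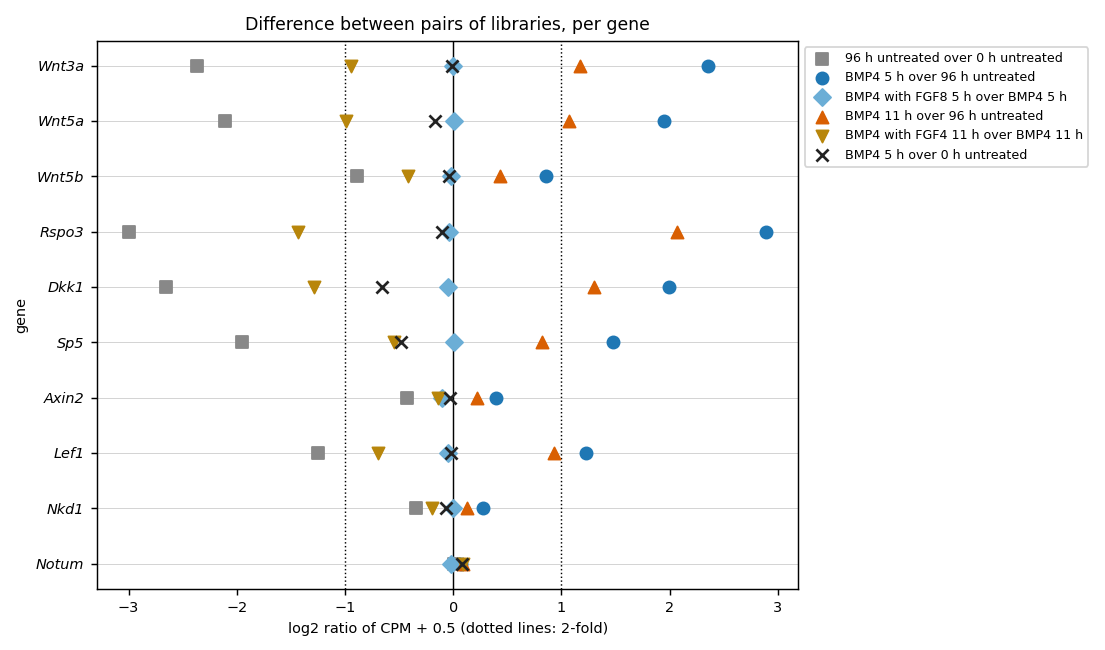
Log2 ratio of CPM + 0.5 (x axis) for each gene (y axis) in 6 pairs of libraries, with 1 marker shape per pair and dotted lines at 2-fold. Ratios at 96 h over 0 h reach -3.00 for Rspo3, and those of BMP4 with FGF8 over BMP4 alone lie between -0.11 and 0.01 for every gene.

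The 4 BMP4 libraries allow the only test across libraries, 11 h against 5 h with 2 libraries on each side. The libraries of a side differ in the FGF added and are not replicates of a condition, so the spread in this test includes that difference. Of the 10 members, 9 lay lower in both 11 h libraries than in both 5 h libraries, which 33.6% of all genes did, and Notum lay higher in both, as did 27.3% of all genes. By edgeR's quasi-likelihood test, none of the 10 passed an adjusted p of 0.05, which 0.444% of 16653 genes passed with lower levels and 2.58% with higher levels at 11 h. Wnt3a had a log2 fold change of -1.70 (edgeR unadjusted p = 0.00373, adjusted p = 0.0664), Sp5 -0.98 (adjusted p = 0.0713), Wnt5b -0.62 (adjusted p = 0.0814) and Wnt5a -1.31 (adjusted p = 0.0879). Of the 10, 8 had an unadjusted p under 0.05, all with lower levels at 11 h, the exceptions being Axin2 and Notum. An unadjusted p under 0.05 was found for 25.9% of all genes, and with lower levels at 11 h for 11.2%. It was also found for 49 of 101 other genes of the pathway lists, of which 5 passed the adjusted threshold with higher levels at 11 h (Wnt2, Fzd5, Rspo4, Lgr5 and Myc) and 1 with lower levels (Celsr1).

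The outcome of this test depended on which library was in it. Without the BMP4 11 h library 9 of the 10 passed with lower levels at 11 h (edgeR, adjusted p under 0.05), as did 17.8% of all genes. Without the BMP4 and FGF4 library 7 passed lower, as did 7.67% of all genes. Without the BMP4 5 h library or the FGF8 library none of the 10 passed, where 0.00% of all genes passed lower in both cases and 0.114% and 0.162% higher. DESeq2 called 5 lower (Wnt3a, Wnt5a, Wnt5b, Sp5 and Lef1), against 4.78% of all genes. In single libraries, Wnt3a was the only member at least 2-fold lower in BMP4 11 h than in BMP4 5 h (2.38-fold, 2.22 to 2.56), against 0.315% of all genes, and none was 2-fold higher, against 2.56%.

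The rest of the pathway was covered by lists sorted by role, whose counts are to be read against 3.84% of all genes at least 2-fold higher and 2.32% lower at 96 h than at 0 h. Of 13 other ligand genes analysed (of 16), 1 was at least 2-fold higher and 1 lower at 96 h than at 0 h. Wnt2, a ligand of lateral plate and heart tissue and also among the markers used for it, was at 15.8 CPM at 96 h against 0.754 at 0 h, and was at 0.811, 1.02, 8.78 and 13.5 CPM with BMP4 at 5 h, with FGF8, with BMP4 at 11 h and with FGF4. Wnt9b was at 0.308 against 1.21 CPM. The median of the list was a log2 ratio of 0.18, and the 3 ligand members were at -0.89 or lower.

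Of 16 receptor and co-receptor genes analysed (of 18), 3 were at least 2-fold higher and 1 lower at 96 h, with a median of 0.16. Ptk7, a co-receptor of the polarity branch, was at 276.6 CPM at 0 h, 102.5 at 96 h, 246 with BMP4 at 5 h, 257 with FGF8, 166 with BMP4 at 11 h and 114 with FGF4. Like Wnt3a, Wnt5a and Rspo3, it was highest at 0 h and lowest at 96 h. Gpr124, a co-receptor for WNT7 ligands in vessels, went the other way, at 53.6 against 16.4 CPM for 96 h over 0 h, as did Fzd5 (2.85 against 0.827 CPM) and Ror1 (6.98 against 2.89 CPM). In the R-spondin list (7 of 8 analysed, median 0.45) Rspo4 and Rspo2 were at 5.57 and 3.40 CPM at 96 h against 1.10 and 0.869 at 0 h, the opposite of Rspo3. Rnf43, a receptor-removing enzyme and WNT target, was at 1.15 against 3.27 CPM.

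Of 14 secreted antagonists and partners analysed (of 18), 3 were at least 2-fold higher and 1 lower at 96 h than at 0 h (median 0.31). Sfrp5 was at 3.80 against 0.0827 CPM, Dkk2 at 5.51 against 1.30 and Dkk3 at 6.72 against 2.82, unlike Dkk1. Cer1, a secreted antagonist placed in this list, was at 0.337 against 5.88 CPM. Whether Cer1 blocks WNT was not examined here. With FGF4 added at 11 h, Sfrp5 (5.68 against 1.555 CPM) and Dkk2 (7.65 against 3.17 CPM) were at least 2-fold higher than with BMP4 alone, against 1.22% of all genes. None of the list was 2-fold lower, against 0.658%. Sfrp5 was kept neither at the stricter placement margin of 10 units nor with placement on the 96 h column alone. For BMP4 at 11 h over 96 h, Cer1 (2.08 against 0.337 CPM) was higher and Sfrp5 (1.555 against 3.80 CPM) lower, against 2.44% and 0.272% of all genes.

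Of 14 destruction complex and Dishevelled genes, 1 was at least 2-fold lower at 96 h than at 0 h and none higher (median -0.01): Nkd2, the relative of Nkd1, at 13.7 against 40.5 CPM (a log2 ratio of -1.53). Ctnnb1, which encodes beta-catenin, was between 373 and 412 CPM in all 6 libraries. With FGF4, Dact2, a Dishevelled-binding protein gene, was at 19.9 CPM against 6.15 with BMP4 alone. Dact2 was the only gene of this list at least 2-fold higher there, against 1.22% of all genes. It was not kept at the stricter placement margin of 10 units. None of 11 nuclear partner genes (median 0.10) and neither of the secretion genes Porcn and Wls (median -0.33) differed 2-fold between 96 h and 0 h. In the polarity list 3 of 12 were at least 2-fold lower at 96 h (Ptk7, Prickle1 and Celsr1, median -0.05). In BMP4 11 h over 96 h, no gene of the ligand, receptor, R-spondin, secretion, destruction complex, nuclear or polarity lists differed 2-fold. Of all genes, 2.44% were higher and 0.272% lower in that comparison.

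Among 13 other WNT target genes analysed (of 17), 6 were at least 2-fold lower at 96 h than at 0 h (2.32% of all genes) and none higher (3.84%), with a median of -0.69. They include the mesoderm factors Msgn1 (0.152 against 23.3 CPM), Tbx6 (0.589 against 41.0 CPM) and T (7.71 against 83.8 CPM), and Fgf8 (1.33 against 18.0 CPM), all of which are also tailbud markers. With BMP4 at 11 h, 4 of the 13 were at least 2-fold higher than at 96 h, against 2.44% of all genes. The median was 0.56, with -0.02 over all genes. With FGF4, 4 of the 13 were at least 2-fold lower than with BMP4 alone, against 0.658% of all genes. The median was -0.31, with -0.02 over all genes. In both comparisons the 4 were Msgn1, Tbx6, T and Fgf8, the tailbud markers named above, and no other target of the list reached 2-fold. Myc, a target gene in other tissues, was at 29.8 CPM at 0 h, 45.4 at 96 h and 49.2 with BMP4 at 11 h. It was higher at 11 h than at 5 h by edgeR over the 4 BMP4 libraries, with a log2 fold change of 0.72 (adjusted p = 0.0189).

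**Figure D4:**
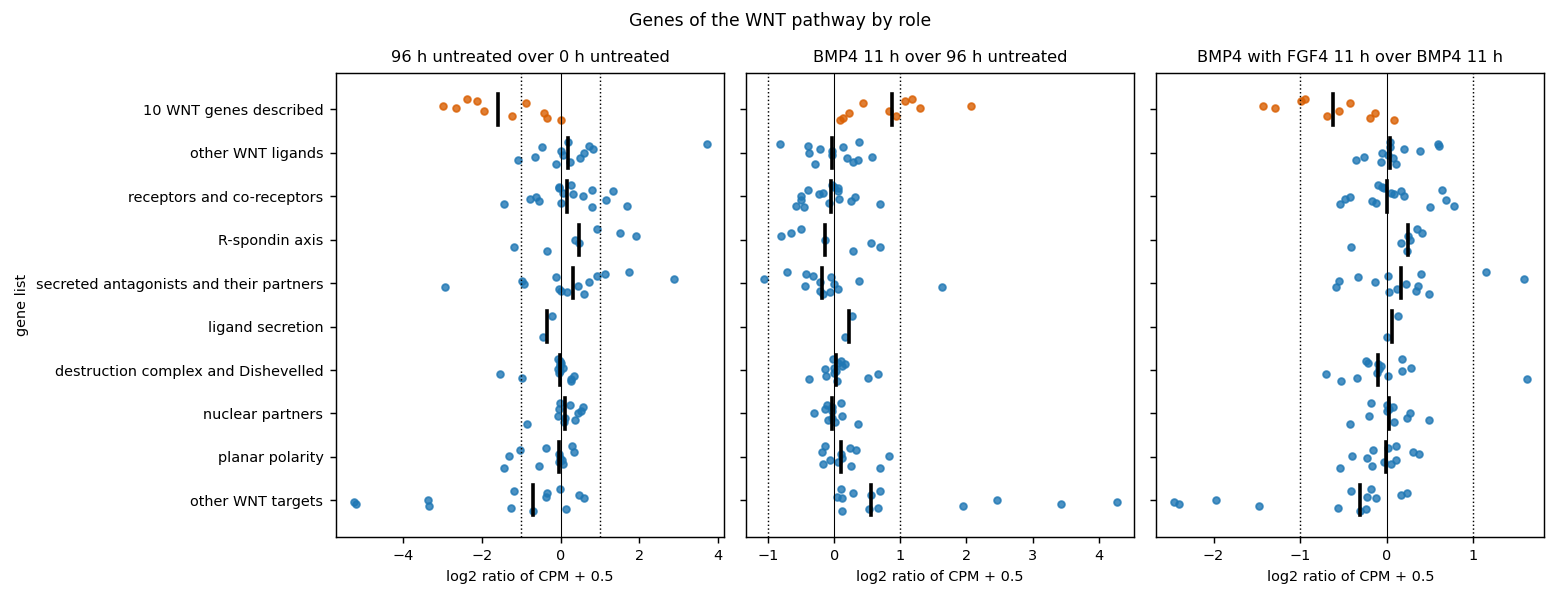
Log2 ratio of CPM + 0.5 (x axis) of each analysed WNT pathway gene, grouped by role (y axis), in 3 pairs of libraries, with 1 point per gene, a black bar at the median and dotted lines at 2-fold. For 96 h over 0 h the medians are -1.60 for the 10 genes described and -0.69 for other WNT targets, and between -0.33 and 0.45 for the remaining lists.

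The genes most like each member in pattern were sought over the 6 libraries among 9569 genes, for the 6 members with a log2 range of at least 1. Lef1 was closest to Fgf9 (Pearson r = 0.9995) and T (r = 0.999), and Rspo3 to Eogt (r = 0.9998) and Msgn1 (r = 0.999). Wnt5a was close to Fabp7 (r = 0.9997), Wnt3a was closest to Arhgap24 (r = 0.999) and Bok (r = 0.999), and Sp5 to Kitl (r = 0.9996) and Slc45a4 (r = 0.9945). Dkk1 was closest to Gdf11 (r = 0.997) and Scd2 (r = 0.996). A high r does not mean a range of like size. Kitl lay between 27.8 and 38.2 CPM, where Sp5 lay between 2.95 and 12.9. Scd2 lay between 472 and 611 CPM, where Dkk1 lay between 2.21 and 16.6. With 6 libraries that share 1 ordering in many genes, such values of r describe the likeness and test nothing.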

How the data were processed

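Total RNA of 6 libraries was sequenced after preparation with a stranded kit, according to the labels' protocols. The values the authors deposited are whole-number read counts for each gene, without normalization. Among the tools in the submitters' processing notes are STAR (2.4.0e), cutadapt, HTSeq and DESeq, with the build mm10. How reads were counted, strand use included, is recorded in none of the sources used here. The 4 growth factor columns hold between 19415 and 19826 values beside 19342 names and are out of register with them. Names were sorted without regard to case, and each column was aligned in order to them by dynamic programming, which charges a value for lying outside the range of both untreated columns and lets low counts be skipped or added. A gene was kept where any other placement cost at least 5 units more in all 4 columns and where libraries of the same time, aligned directly, paired the same rows. This kept 16737 genes with 99.1% to 99.2% of the counts. Values between the untreated libraries are favoured by this placement. The smallest margin among the 10 members was 12.85 units (Notum).

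CPM were computed with TMM scaling (edgeR 4.0.16 in R 4.3.3), and a gene was analysed if any library reached 1 CPM. A log2 ratio was taken after adding 0.5 CPM, which understates changes of weak genes. A gene counts as different at 2-fold or more with an exact (Clopper-Pearson) 95% counting interval that excludes 1. Of values from 1 to 20, 65.4% to 70.9% are even. If this reflects pairs entered as 2 counts, the intervals are narrower than they should be. The test of 11 h against 5 h was edgeR's quasi-likelihood test with Benjamini-Hochberg adjustment, with DESeq2 1.42.0 as an alternative. Scripts were tested on simulated data. Gene positions and exon lengths are from GENCODE M21 (mm10). Up to 4 genes per pathway list were named by the counting interval farthest from 1 among those past 2-fold, while Ctnnb1, Porcn, Wls and genes passing the edgeR test were named after their values were seen. Genes of like pattern are the 2 with the highest Pearson r of log2(CPM + 0.5) among those with a mean of at least 5 CPM. For Wnt5a, 1 of the 2 is not reported here. The members and lists were chosen with earlier results of these data known. Alternatives were another added value, DESeq2 size factors, total counts, other filters, stricter placement and placement on the 96 h column alone.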

Additional observations from a re-analysis of the deposited data

How the results depend on the processing

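The 10 members' log2 ratios shifted most with 2 CPM added, by between -0.46 and 0.51. They shifted by at most 0.0126 with DESeq2 size factors, by between -0.10 and 0.14 with total counts, and by at most 0.0247 with a placement margin of 10 units. No call of a member changed under DESeq2 size factors, with at least 5 CPM, with no filter or with a margin of 10 units. Some marker genes and other named genes were less secure. At a margin of 10 units Hba-a1, Hba-x, Hbb-bh1, Hbb-y and Slc4a1 of the red blood cell list were not kept. The same held for the markers Fgf8, Fgf17, Thy1, Gata4, Myh6 and Olig2, and for Dact2 and Sfrp5. With 2 CPM added, members past 2-fold upward in BMP4 11 h over 96 h numbered 2 (Rspo3 and Wnt5a) and members lower with FGF4 than with BMP4 alone numbered 1 (Rspo3). With placement on the 96 h column alone, Wnt3a was not securely placed, which left 0 members lower in BMP4 11 h than in BMP4 5 h. Wnt3a then also dropped out of the members called in 96 h over 0 h, in both 5 h libraries over 96 h and in BMP4 11 h over 96 h. The 5 changes of sign concerned ratios between -0.14 and 0.01.

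Counts over all genes, higher and then lower, were as follows with 2 CPM added: 294 and 184 at 96 h over 0 h, 187 and 256 for BMP4 5 h over 96 h, 170 and 14 for BMP4 11 h over 96 h, 191 and 240 for BMP4 with FGF8 over 96 h, 75 and 8 for BMP4 with FGF4 over 96 h, 14 and 0 for FGF8 added, 63 and 55 for FGF4 added, 147 and 17 for BMP4 11 h over 5 h, and 20 and 1 for BMP4 5 h over 0 h. With at least 5 CPM they were 346 and 211 at 96 h over 0 h, 107 and 9 for BMP4 with FGF4 over 96 h, 210 and 284 for BMP4 with FGF8 over 96 h, 211 and 28 for BMP4 11 h over 5 h, 31 and 5 for BMP4 5 h over 0 h, 287 lower for BMP4 5 h over 96 h, 205 higher for BMP4 11 h over 96 h, 1 lower for FGF8 added and 108 higher for FGF4 added. With a margin of 10 units they were 123 and 9 for BMP4 with FGF4 over 96 h, 15 and 0 for FGF8 added, 28 and 5 for BMP4 5 h over 0 h, and 29 lower for BMP4 11 h over 5 h, which was 25 with placement on the 96 h column alone. Each of these settings tests fewer genes or compresses low levels by construction.

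In the edgeR test of 11 h against 5 h, 430 genes were higher and 74 lower. Leaving out 1 library gave between 19 and 3500 higher and between 0 and 2970 lower, and members past the threshold ranged from 0 to 9. A lone library was then assumed to vary like the pair on the other side. DESeq2 called 1553 higher and 800 lower, with 5 members. With FGF in the design 118 genes were lower and 2 members (Wnt3a and Wnt5a) passed lower, as did 0.709% of all genes. The cause was not tested. No paired analysis was possible because each condition has 1 library and the labels number no replicates. Antisense genes of the annotation overlap 29.4% of the exon bases of Notum, 13.7% of Lef1 and 13.1% of Rspo3, and whether counting used strand is not stated.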
